A study of Mus musculus with 30 samples.

Results

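Male WT and LFABP-/- mice were compared to ask how loss of the liver fatty acid-binding protein alters gene expression in fat and liver during diet-induced obesity, and 7 genes are described here: Dnajb4, Slc38a7, Klhl9, Syne2, Fbxo21, Lrp3 and Acsm5. They are 7 of the 41549 genes listed, and they were chosen by symbol because their levels differed between the genotypes in the same direction in inguinal white fat (iWAT), interscapular brown fat (iBAT) and liver. That shared direction is therefore how the genes were found and not a result, and their genotype differences are given as a description with no test. RNA-seq was performed on 30 libraries from 10 mice, 5 WT and 5 LFABP-/-, with iWAT, iBAT and liver taken from each mouse. All mice were males on a C57Bl/6J background given a diet with 45 kcal% of fat, rich in saturated fat, for 12 weeks from 2 months of age and fasted for 4 h before tissues were collected. The LFABP-/- mice lacked the gene in the whole body, so no group here carries a deletion limited to 1 tissue, and no group was on another diet. Because all 3 tissues came from the same mice, agreement between tissues is not agreement between separate animals.

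The 7 genes belong to different families. Dnajb4 is a J-domain co-chaperone that hands misfolded proteins to HSP70 chaperones. Klhl9 and Fbxo21 are substrate adaptors of cullin-RING ubiquitin ligases, Klhl9 for CUL3 and Fbxo21 for the SCF complex built on CUL1. Syne2 encodes nesprin-2, a giant outer nuclear membrane protein that binds SUN proteins and so links the nucleus to the cytoskeleton. Slc38a7 is a lysosomal exporter of glutamine and asparagine, Lrp3 is a member of the LDL receptor family, and Acsm5 belongs to the medium-chain acyl-CoA synthetases of mitochondria. LFABP itself, encoded by Fabp1, is an abundant fatty acid carrier of the hepatocyte and enterocyte cytosol, and fatty acids are stored by white fat, burnt by brown fat and handled in every direction by liver.

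All values are on the TPM scale, which corrects for transcript length and library total (the deposited column heads read RPKM, but each library sums to between 999967 and 999996, as TPM does). They carry 1 decimal and no read counts, so depth is unknown and no counting interval can be given; 16470 to 20502 genes were above 0 per library. Fabp1, the deleted gene (chr6:71199827-71205023, GRCm38), was listed between 9166 and 12698 in the 5 WT livers and at 51.8, 13.7, 0.3, 0.6 and 0.2 in the LFABP-/- livers. In iWAT the library labelled LFABP-/- replicate 1 had a Fabp1 value of 196.1, above all 5 WT libraries (1.9 to 23.9), and the highest hepatocyte marker level of its tissue (mean log2 of 10 markers 7.38, against 2.23 to 5.58 in the other 9 libraries). In iBAT Fabp1 was at 1.4, 0.2, 0.4, 5.1 and 8.7 in WT and at 0.4, 2, 21.2, 15 and 13.1 in LFABP-/- mice, so the 3 libraries labelled LFABP-/- replicates 3 to 5 were above every WT library of that tissue. Without the iWAT library labelled LFABP-/- replicate 1 all 7 genes kept the direction of their iWAT difference, and none moved by more than 0.044 on the log2 scale. Without the iBAT libraries labelled LFABP-/- replicates 3 to 5 (set against WT replicates 1 to 3, within the prefix G30 described below) all 7 iBAT differences had the same direction as well, from -0.02 (Klhl9) to -0.82 (Lrp3) for the 6 lower genes and 0.74 for Dnajb4. The direction chose the genes, so nothing is read from its being kept in either run. The mean log2 of the hepatocyte markers was 6.38 and 6.92 in LFABP-/- iBAT replicates 1 and 2, which this run kept. It was 6.65, 4.30 and 3.71 in replicates 3 to 5, which were left out. In iBAT the summed hepatocyte markers ranged from 58.5 to 232.1 in WT and from 227.1 to 2278 in LFABP-/- libraries, with none of the 10 at 0 throughout either group, and summed skeletal muscle markers ranged from 247.0 to 41611. In iWAT the summed lymphocyte markers were between 640.7 and 2347 in 5 libraries (WT replicates 3 and 4 and LFABP-/- replicates 2, 3 and 4) and between 21.1 and 46.7 in the other 5, with Ighm at 0 in all 10. White adipocyte, brown adipocyte and hepatocyte markers were each highest in their own tissue. Within iWAT, summed brown adipocyte markers were 2891.2 in the library labelled LFABP-/- replicate 2 and 192.8 to 847.4 in the others. In such bulk samples fewer cells of a type and less RNA per cell cannot be told apart.

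Promoter sequences of all 7 genes were found in RefSeq (GRCm38.p6; 8 annotated starts, since Dnajb4 has a pair), and 4 of them are shown because they hold a searched E-box or heat shock element core. Each is the 250 bases before an annotated start, 5′ to 3′ on the gene's strand, with searched motifs in capitals: CACGTG (the E-box), TTCNNGAA (a core of the heat shock element) and TGACG (the short form of a cAMP response element), each looked for on both strands.
Lrp3, chr7:35215346-35215595, minus strand: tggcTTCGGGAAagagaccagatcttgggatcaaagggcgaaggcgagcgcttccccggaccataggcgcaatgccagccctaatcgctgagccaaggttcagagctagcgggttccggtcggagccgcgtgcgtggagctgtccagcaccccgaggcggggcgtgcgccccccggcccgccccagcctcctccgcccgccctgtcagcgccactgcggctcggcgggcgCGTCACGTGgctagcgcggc
Slc38a7, chr8:95853492-95853741, minus strand: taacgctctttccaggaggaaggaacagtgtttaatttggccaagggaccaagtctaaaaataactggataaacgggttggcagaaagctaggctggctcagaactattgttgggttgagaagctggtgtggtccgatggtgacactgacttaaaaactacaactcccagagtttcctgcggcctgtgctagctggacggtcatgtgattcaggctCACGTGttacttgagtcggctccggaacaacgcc
Acsm5, chr7:119526015-119526264, plus strand: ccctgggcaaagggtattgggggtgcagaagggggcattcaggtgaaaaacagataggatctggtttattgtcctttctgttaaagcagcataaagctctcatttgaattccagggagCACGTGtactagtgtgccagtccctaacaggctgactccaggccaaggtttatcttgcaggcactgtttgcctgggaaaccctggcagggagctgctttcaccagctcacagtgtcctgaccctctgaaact
Dnajb4, second start, chr3:152193846-152194095, minus strand: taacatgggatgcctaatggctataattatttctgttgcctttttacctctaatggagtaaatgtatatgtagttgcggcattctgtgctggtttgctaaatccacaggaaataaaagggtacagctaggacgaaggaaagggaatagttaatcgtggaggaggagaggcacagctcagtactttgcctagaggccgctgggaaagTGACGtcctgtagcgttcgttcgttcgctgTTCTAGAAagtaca
CACGTG was found in 3 of the 8 member promoters, 17 bases upstream of the Lrp3 start, 34 upstream of the Slc38a7 start and 132 upstream of the Acsm5 start, and in 6.02% of all 32851 promoters of the same length. The Lrp3 E-box overlaps a TGACG match read on the other strand, CGTCA, 20 bases upstream. TTCNNGAA was found in 2 of the 8 (7.17% of all), as TTCTAGAA 14 bases upstream of the second Dnajb4 start and as TTCGGGAA 246 bases upstream of Lrp3. TGACG was present in 3 of the 8 (17.8% of all), the promoters of both Dnajb4 starts and of Lrp3, whereas the complete palindrome TGACGTCA was in none of them (1.55% of all). GGGCGG, the GC box, was in 5 of the 8 (32.7% of all), and TATAAA in none (12.4% of all). These matches are letters in a window, not measured binding, and no factor was measured here.

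**Figure D1:**
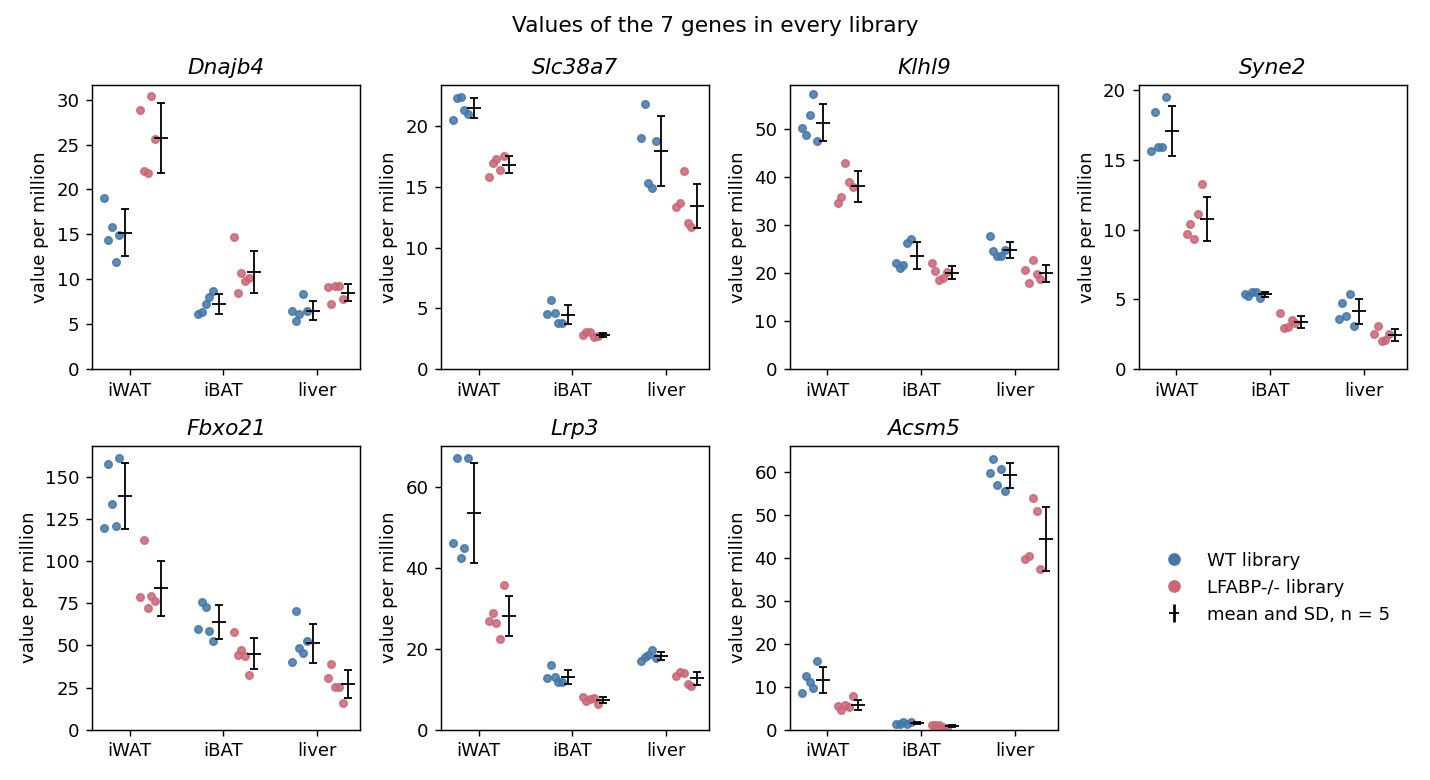
TPM-scale value of each of the 7 genes in every library, by tissue (horizontal axis) and genotype (WT blue, LFABP-/- red), with group mean and SD (n = 5). Dnajb4 is the gene with the higher LFABP-/- means, from 6.50 to 8.50 in liver and 15.2 to 25.8 in iWAT, while the LFABP-/- means of the other 6 genes lie below the WT means in all 3 tissues.

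Dnajb4 was the 1 gene of the 7 with more transcript in LFABP-/- mice. It lies on chr3:152178511-152210302, minus strand (GRCm38), with 8 merged exons. In iWAT its values were 19, 14.4, 15.8, 11.9 and 14.9 in WT and 28.9, 22.1, 21.8, 30.4 and 25.6 in LFABP-/- mice. No LFABP-/- library came below the highest WT library, and the difference of means was 0.74 (SE 0.14) on the log2(value + 0.5) scale, used for all log2 differences here. In iBAT the WT values were 6.1, 6.3, 7.2, 8.0 and 8.7 and the LFABP-/- values 14.7, 8.5, 10.7, 9.8 and 10.1. The groups overlapped by 1 LFABP-/- library, replicate 2 at 8.5, and the log2 difference was 0.53 (SE 0.16). In liver the WT values were 6.4, 5.3, 6.1, 8.3 and 6.4 and the LFABP-/- values 9.1, 7.2, 9.2, 9.2 and 7.8. There the groups overlapped, with WT replicate 4 at 8.3 above 2 LFABP-/- livers, and the log2 difference was 0.37 (SE 0.12). The difference was thus 69.5% of the WT mean in iWAT, 48.2% in iBAT and 30.8% in liver.

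Slc38a7, the lysosomal glutamine and asparagine exporter (chr8:95835920-95853539, minus strand, 12 merged exons), was lower in LFABP-/- mice. In iWAT it was measured at 20.5, 22.3, 22.4, 21.3 and 21 in WT and at 15.8, 17, 17.3, 16.4 and 17.5 in LFABP-/- mice. The spread within each group was narrow, with an SD of 0.828 in WT and 0.696 in LFABP-/-, and the groups stood 3 apart, for a log2 difference of -0.35 (SE 0.04). In iBAT, where the gene was least abundant, values were 4.5, 5.7, 4.6, 3.8 and 3.8 in WT and 2.8, 3.0, 3.0, 2.6 and 2.7 in LFABP-/- mice. All 5 LFABP-/- libraries came below all WT libraries, and the log2 difference was -0.57 (SE 0.10). In liver the WT values were 19, 21.8, 15.3, 14.9 and 18.8 and the LFABP-/- values 13.3, 13.7, 16.3, 12.0 and 11.7. LFABP-/- replicate 3 at 16.3 was above WT replicates 3 and 4, so the groups overlapped, with a log2 difference of -0.40 (SE 0.13).

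Klhl9, the CUL3 adaptor, is a single-exon gene at chr4:88718292-88722465, minus strand. Its iWAT values were 50.1, 48.7, 53.0, 57.2 and 47.5 in WT and 34.6, 35.8, 43.0, 38.9 and 37.9 in LFABP-/- mice, groups that did not overlap (log2 difference -0.43, SE 0.07). Its iBAT values were 22.1, 21, 21.6, 26.2 and 27.1 in WT and 22.1, 20.4, 18.6, 18.9 and 20.1 in LFABP-/- mice. Here the groups overlapped, and the log2 difference of -0.23 (SE 0.09) was the smallest of the 21 gene and tissue pairs. It was carried by the mice whose libraries bear the prefix G32 in iBAT and liver (WT replicates 4 and 5 and LFABP-/- replicates 3 to 5). The difference was -0.46 among them and -0.02 among those with the prefix G30. The labels do not say what the prefix marks. The iWAT libraries of WT replicates 4 and 5 are themselves named G30, so by iWAT names G32 occurs only in LFABP-/- libraries. Prefix runs in iWAT therefore use the prefix of each mouse's iBAT and liver libraries. In liver Klhl9 was at 27.7, 24.5, 23.6, 23.6 and 24.7 in WT and at 20.6, 18, 22.6, 19.7 and 18.8 in LFABP-/- mice. Those groups did not overlap, with a log2 difference of -0.31 (SE 0.07). The kit did not mark strand, and 661 exon bases of Klhl9 (15.8%) overlap Gm26566 on the opposite strand, so reads there cannot be told apart. Gm26566 had mean values of 6.42 in WT and 4.38 in LFABP-/- iWAT and of 4.18 ± 1.49 and 0.78 ± 0.53 (SD, n = 5) in liver, so it was below Klhl9 in every tissue and lower in LFABP-/- liver (limma, adjusted p = 0.00967).

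Fbxo21, the F-box adaptor of an SCF ubiquitin ligase (chr5:117976730-118010201, plus strand, 14 merged exons), was the most abundant of the 7 in iWAT and iBAT. Its iWAT values were 119.8, 157.3, 134.0, 120.7 and 161.2 in WT and 78.9, 112.5, 72.3, 79 and 76.4 in LFABP-/- mice. LFABP-/- replicate 2 stood apart from its group at 112.5 and was still below every WT library, and the log2 difference was -0.73 (SE 0.14). That library also had the highest brown adipocyte markers in iWAT, and their part in its value was not tested. In iBAT it was at 59.7, 75.6, 72.7, 58.6 and 52.7 in WT and at 58.0, 44.3, 47.0, 43.7 and 32.6 in LFABP-/- mice. LFABP-/- replicate 1 at 58.0 lay above WT replicate 5, and the log2 difference was -0.51 (SE 0.16). In liver values were 40.0, 70.4, 48.6, 45.6 and 52.3 in WT and 30.7, 38.8, 25.6, 25.4 and 16 in LFABP-/- mice. The liver groups did not overlap, and their log2 difference of -0.93 (SE 0.25) had the widest error of the 21 pairs; it was -0.57 among G30 and -1.14 among G32 libraries.

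Syne2, encoding nesprin-2, spans chr12:75818134-76110926 on the plus strand with 120 merged exons and 26726 exon bases, the longest transcript model of the 7. In iWAT it was at 15.6, 18.4, 15.9, 15.9 and 19.5 in WT and at 9.7, 10.4, 9.3, 11.1 and 13.3 in LFABP-/- mice, with no overlap and a log2 difference of -0.65 (SE 0.11). In iBAT it was at 5.4, 5.2, 5.5, 5.5 and 5.1 in WT and at 4.0, 2.9, 3.0, 3.5 and 3.3 in LFABP-/- mice. The WT libraries differed by at most 0.4 there, all of them above every LFABP-/- library, and the log2 difference was -0.61 (SE 0.08). In liver the values were 3.6, 4.7, 3.8, 5.4 and 3.1 in WT and 2.5, 3.1, 2.0, 2.1 and 2.5 in LFABP-/- mice. WT replicate 5 and LFABP-/- replicate 2 tied at 3.1, and the log2 difference was -0.64 (SE 0.16), so the size of the Syne2 difference ranged from 0.61 to 0.65 across the tissues on this scale.

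Lrp3, the LDL receptor family member (chr7:35200027-35215498, minus strand, 9 merged exons), had no overlap between genotypes in any tissue. In iWAT it was at 46.3, 67.3, 42.6, 45.1 and 67.2 in WT and at 26.9, 28.9, 26.5, 22.4 and 35.8 in LFABP-/- mice. WT replicates 2 and 5 were well above the other 3 WT libraries, all LFABP-/- libraries were below 42.6, and the log2 difference was -0.91 (SE 0.18). In iBAT the values were 12.8, 16.1, 13, 11.8 and 11.8 in WT and 8.1, 7.2, 7.7, 7.8 and 6.3 in LFABP-/- mice (log2 difference -0.78, SE 0.10). In liver they were 17.1, 18, 18.6, 19.7 and 17.8 in WT and 13.3, 14.3, 14, 11.4 and 10.8 in LFABP-/- mice (log2 difference -0.51, SE 0.09). The size of the difference thus ran in the order iWAT, iBAT, liver. Lrp3 shares 377 exon bases (8.02%) with the amino acid exchanger gene Slc7a10 on the opposite strand. Slc7a10 had a mean of 491.9 in WT and 355.1 in LFABP-/- iWAT (limma, adjusted p = 0.525). In iBAT it was called lower in LFABP-/- mice, as Lrp3 was lower, with means of 7.42 in WT and 3.28 in LFABP-/- (limma, adjusted p = 0.0569). Reads from the shared bases cannot be told apart, and their part in the Lrp3 differences between genotypes or between tissues was not tested. In liver Slc7a10 was at 0.9 or less in all 10 libraries while the Lrp3 means there were 18.2 ± 0.976 and 12.8 ± 1.57 (SD, n = 5).

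Acsm5, the acyl-CoA synthetase gene (chr7:119519463-119545551, plus strand, 21 merged exons), likewise had no overlap in any tissue. In iWAT it was at 8.5, 12.6, 11, 9.7 and 16.1 in WT and at 5.5, 4.7, 5.7, 5.3 and 7.8 in LFABP-/- mice, with the lowest WT and highest LFABP-/- library 0.7 apart and a log2 difference of -0.92 (SE 0.19). In iBAT it was near the lower end of what the 1-decimal values resolve, at 1.4, 1.3, 1.7, 1.3 and 1.7 in WT and at 1.1, 1.1, 1.0, 0.6 and 0.5 in LFABP-/- mice. The gap between those groups was 0.2, and the log2 difference of -0.56 (SE 0.16) is reduced by the added 0.5. In liver, its main site, Acsm5 was at 59.8, 63.1, 57.1, 60.9 and 55.6 in WT and at 39.7, 40.4, 54.0, 51.1 and 37.5 in LFABP-/- mice. LFABP-/- replicates 3 and 4 were 1.6 or more below the lowest WT liver, the other 3 lay between 37.5 and 40.4, and the log2 difference was -0.42 (SE 0.11). The Acsm5 promoter shown above lies inside the Ensembl gene body, because RefSeq places the start of Acsm5 downstream of the Ensembl start. The window of the second Dnajb4 start also lies inside its Ensembl gene. Those of Lrp3 and Slc38a7 reach into theirs, with the E-box of each inside the gene. Of the 100-base stretches in the transcripts of the 7 genes, those also found in another gene's transcripts made up 13.8% for Klhl9 (Gm26566), 4.00% for Lrp3 (Slc7a10), 0.294% for Acsm5 (Pdilt) and 0.0177% for Fbxo21, and none was found for Dnajb4, Slc38a7 or Syne2.

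**Figure D2:**
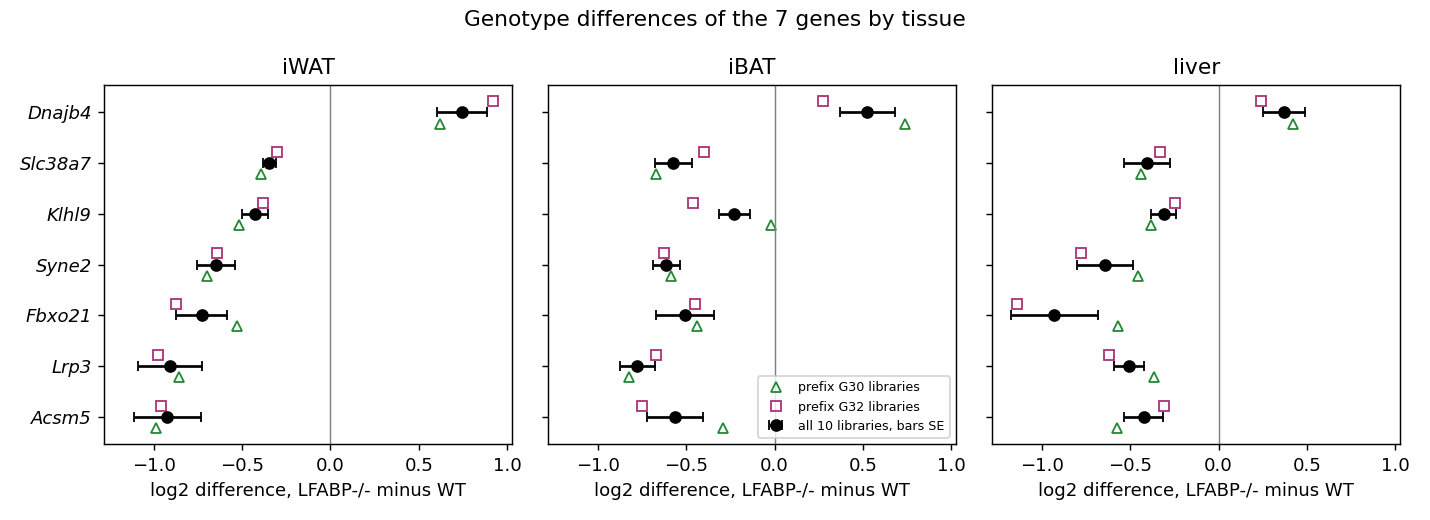
Log2 difference, LFABP-/- minus WT, of each gene in iWAT, iBAT and liver (black points, bars SE, 5 against 5 libraries), with the difference within prefix G30 (triangles) and within prefix G32 (squares). In all panels the prefix is that of each mouse's iBAT and liver libraries, since no WT iWAT library is itself named G32. All points lie on the side of 0 that the choice of the genes fixed, and the one nearest 0 is Klhl9 in iBAT within G30, at -0.02.

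Side by side, the genotypes did not overlap in 15 of the 21 gene and tissue pairs. In iWAT this held for the single higher gene and all 6 lower ones, where 1.45% of 14668 tested genes had no overlap and a higher LFABP-/- level and 1.66% no overlap and a lower one. In iBAT it held for 4 of the 6 lower genes (14.3% of 11614 genes tested) and not for Dnajb4 (12.1% for higher), and in liver for 4 of the 6 lower genes (8.63% of 11629 genes tested) and not for Dnajb4 (1.40% for higher). The choice of the genes used these contrasts, so nothing is read from the counts. Lrp3 and Acsm5 were without overlap in all 3 tissues, as were 0.0989% of the 10114 genes tested in all 3 in the lower direction and 0.00989% in the higher one. Of those genes 34.3% had the same direction in each tissue, 14.7% higher and 19.7% lower. With limma at an adjusted p under 0.1, 5 genes were called higher in all 3 tissues (0.0494%) and 9 lower (0.0890%), and 0.208% were called in all 3 in any directions. Within single tissues the shares limma called higher and lower were 0.682% and 0.770% (iWAT), 22.3% and 25.5% (iBAT) and 3.08% and 13.9% (liver). On the log2 scale the difference was largest in iWAT for Dnajb4, Klhl9, Lrp3 and Acsm5, in iBAT for Slc38a7 and in liver for Fbxo21, while for Syne2 the order turned with the pseudocount (with 0.1 added, -0.67 in iWAT, -0.67 in iBAT and -0.72 in liver).

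The genotype difference of each gene was compared with the cell type markers and the scale of the libraries. None of the 21 differences changed sign in any alternative run that tested the gene, a direction that had chosen the genes and so is no support. With the hepatocyte markers as a covariate in iBAT, an alternative chosen after seeing the data, the 7 differences ranged from -1.08 (Acsm5) to 0.35 (Dnajb4), while the number of all genes called in iBAT went from 5556 to 793. The mean log2 of those markers was 0.69 to 3.20 in WT and 3.71 to 6.92 in LFABP-/- iBAT, without overlap. Covariate and genotype therefore cannot be told apart there, and the limma SE of Dnajb4 went from 0.14 to 0.27. Fewer calls with this covariate, here and below, cannot be assigned to either. In the 5 iWAT libraries low in lymphocyte markers, also chosen after seeing the data, Dnajb4 differed by 0.75 and the other 6 by between -0.34 (Slc38a7) and -0.93 (Lrp3). In liver the median of all tested genes was at -0.10, and mitochondrially encoded transcripts took 12.1% to 15.1% of WT and 16.9% to 18.1% of LFABP-/- libraries. When liver libraries were scaled by median ratios, which put the median of all genes at 0.003, the 6 lower genes differed by between -0.20 (Klhl9) and -0.81 (Fbxo21) and Dnajb4 by 0.48. The part of cell makeup and of the mitochondrial share in the differences was not tested further.

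The choice of the genes did not use levels between tissues, so those were tested within each genotype with limma and the mouse as a block. At the scale of the deposited values, all 7 genes were lower in iBAT than in iWAT in WT mice, by 1.01 (Dnajb4) to 2.58 (Acsm5) on the log2 scale, and 7 of 7 passed an adjusted p under 0.1, beside 91.9% of all genes tested (84.5% lower and 7.35% higher). In LFABP-/- mice 7 of 7 were again called lower, beside 92.5% of all genes (84.2% lower and 8.30% higher). The median of all genes was -1.35 in WT and -1.42 in LFABP-/- mice, and mitochondrially encoded transcripts made up 53.3% to 60.1% of iBAT libraries. Slc38a7 (-2.16 in WT and -2.38 in LFABP-/-), Lrp3 (-1.97 and -1.84) and Acsm5 (-2.58 and -2.22) lay below that median in both genotypes, as did Syne2 (-1.58 and -1.55) by less. Slc38a7 and Acsm5 were also called lower in iBAT with median-ratio scaling in both genotypes, at -0.81 and -0.95 for Slc38a7 and -1.34 and -0.98 for Acsm5 (limma, highest adjusted p = 0.00011), as was Lrp3 at -0.58 and -0.36 (adjusted p = 0.0177 and 0.0415). Slc7a10, which shares exon bases with Lrp3 on the opposite strand, had a mean of 423.5 in iWAT and 5.35 in iBAT. Its part in the Lrp3 difference between the fats was not tested. For Dnajb4, Klhl9 and Fbxo21 the direction turned with median-ratio scaling. Which of the fat depots holds more of them per transcript thus depends on the scale.

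Between liver and iWAT 7 of 7 genes were called in each genotype, Acsm5 higher and 6 lower, beside 91.1% of all genes in WT (13.6% higher and 77.5% lower) and 93.3% in LFABP-/- mice (13% higher and 80.3% lower). Between liver and iBAT 5 were called in WT mice, 3 of them higher, beside 72.1% of all genes (39.1% higher and 33.0% lower). In LFABP-/- mice 6 were called, 3 of them higher, beside 75.2% (38.5% higher and 36.6% lower). Liver differed most from both fats in Acsm5. In WT mice its liver level exceeded that in iWAT by 2.34 (SE 0.14) and that in iBAT by 4.92 (SE 0.14) on the log2 scale, and in LFABP-/- mice by 2.84 (SE 0.17) and 5.06 (SE 0.17), all with limma adjusted p of 3.68e-10 or lower. Both scalings kept these directions. Slc38a7 was higher in liver than in iBAT by 1.89 in WT and 2.06 in LFABP-/- mice (adjusted p = 1.64e-09 and 1.06e-11). Against iWAT its liver level was lower by 0.27 and 0.32 at the deposited scale and higher by 0.99 and 1.08 with median ratios. Syne2 was lower in liver than in iWAT by 1.94 in both genotypes, and Fbxo21 by 1.44 and 1.64. Syne2 remained called with median-ratio scaling (-0.73 and -0.61), and Fbxo21 did not (-0.16 and -0.20, adjusted p = 0.464 and 0.410). Klhl9 had no difference between liver and iBAT past the threshold in either genotype, with 95% intervals from -0.12 to 0.27 in WT and from -0.18 to 0.16 in LFABP-/- mice, and for Dnajb4 in WT mice the interval was -0.45 to 0.15. Without mitochondrially encoded genes, however, Klhl9 was lower in liver than in iBAT by 0.95 in WT mice. By mean level, WT mice had the order iWAT, liver, iBAT for Slc38a7, Klhl9 and Lrp3, the order iWAT, iBAT, liver for Dnajb4, Syne2 and Fbxo21, and the order liver, iWAT, iBAT for Acsm5, where the neighbours liver and iBAT did not pass the test for Klhl9 and Dnajb4. LFABP-/- mice had the same orders except for Klhl9, with means of 20.02 in iBAT and 19.94 in liver. The place of iWAT in the Lrp3 order carries the limit of the bases shared with Slc7a10, whose mean was 423.5 in iWAT and 0.38 in liver.

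**Figure D3:**
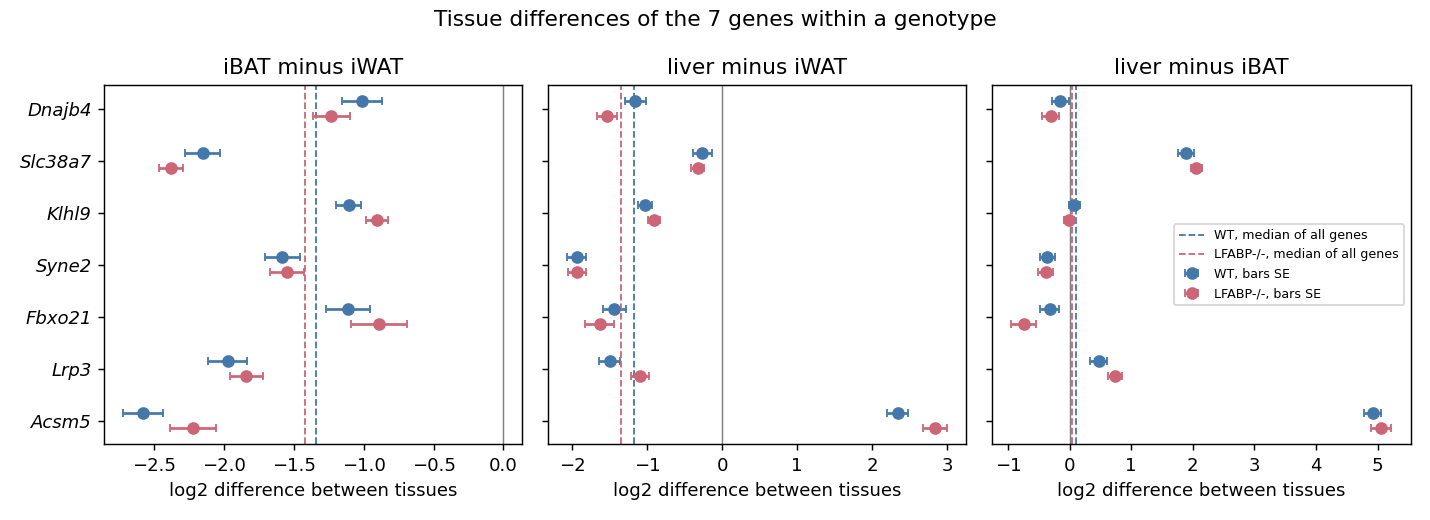
Log2 difference between tissues for each gene within WT (blue) and LFABP-/- mice (red), bars SE, from limma with the mouse as a block (15 libraries each); dashed lines mark the median of all genes tested. Acsm5 stands 4.92 and 5.06 higher in liver than in iBAT, and in the comparison of the fats all genes lie below 0, on both sides of the dashed lines at -1.35 and -1.42.

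Whether a mouse with more of a transcript in 1 tissue also had more in another was asked from the deviations of the 10 mice from their genotype means, which the choice of the genes did not use. Of 21 relations (7 genes and 3 tissue pairs), 9 were positive, and the median Pearson r was -0.0074. Only Fbxo21 between iWAT and liver had an unadjusted p under 0.05, with r = 0.727 and Spearman's rho = 0.697 (exact two-sided permutation of mice within genotype, p = 0.0433 and 0.0353, n = 10), and r = 0.667 without the 2 mice farthest from the median. Its Benjamini-Hochberg adjusted p over the 21 relations was 0.583, and no relation passed. With median-ratio scaling Acsm5 between iWAT and liver passed, with r = -0.812 and rho = -0.745 in place of r = -0.292 (exact permutation p = 0.00125 and 0.0166, adjusted p = 0.0262 for r, n = 10), and r was -0.486 without the 2 mice farthest from the median.

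Across the 30 libraries, once each tissue's mean was removed, the genes most like each member were named, as a description that shares mouse and genotype among its points and in which the genotype difference weighs heavily. Lrp3 was the gene most like both Syne2 (Pearson r = 0.867) and Acsm5 (r = 0.866) among 10114 genes. The genes most like Lrp3 were Cped1 (r = 0.921) and the fatty acid transporter gene Slc27a1 (r = 0.913), and Slc27a1 was also second for Acsm5 (r = 0.853). Dnajb4 was most like Palld (r = 0.854), an actin-associated protein gene, Slc38a7 most like Calcoco1 (r = 0.860), Klhl9 most like the ubiquitin ligase gene Trim37 (r = 0.856) and Fbxo21 most like Elmod3 (r = 0.873). With group means removed, so that genotype no longer contributed, r of Lrp3 was 0.542 with Fbxo21, 0.511 with Acsm5, 0.452 with Syne2, 0.331 with Slc38a7, -0.099 with Dnajb4 and -0.371 with Klhl9. The other pairs ranged from -0.395 (Dnajb4 and Slc38a7) to 0.457 (Slc38a7 and Fbxo21).

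The families of the 7 genes were followed in 9 lists that leave the members out. In iWAT 5 of 155 listed genes tested were called (3.23%, against 1.45% of all genes), in iBAT 86 of 146 (58.9%, against 47.8%) and in liver 32 of 143 (22.4%, against 16.9%).

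Chaperones around Dnajb4 had no call in iWAT. In liver, 3 of 21 genes of the heat shock list were higher and none lower (3.08% and 13.9% of all genes): the HSP70 co-chaperone Bag3 (29.4 ± 6.34 in WT and 47.8 ± 11.4 in LFABP-/-, SD, n = 5), the inducible HSP70 gene Hspa1b (16.3 ± 6.09 and 48.8 ± 35.1) and Chordc1. Those calls ended when any 1 of 5 livers was left out (WT replicate 2 and LFABP-/- replicates 1, 3, 4 and 5 each left 0 of 21); 1 remained without WT replicate 1, 3 or 4, there were 5 without LFABP-/- replicate 2, and 6 with median-ratio scaling. In iBAT, 4 of 22 were higher, among them Bag3 with a log2 difference of 0.74 and Hspa4 with 0.59, beside 22.3% of all genes, but none was called with the hepatocyte covariate (0.45 for Bag3 and 0.38 for Hspa4, limma adjusted p = 0.385 and 0.205). There 6 were lower, beside 25.5% of all genes (2 without LFABP-/- replicate 3 or 4 or WT replicate 4 or 5, 3 without LFABP-/- replicate 2 and 10 without LFABP-/- replicate 1). Of the other J-domain genes, 4 of 13 were higher and 1 lower in iBAT, and 2 of 12 were called each way in liver, where both lower calls were lost with median-ratio scaling. With 1 library left out in turn, 1 to 3 were higher and 0 to 2 lower in liver. In iBAT the same runs gave 3 to 5 higher and 0 to 2 lower. Dnajb9, an endoplasmic reticulum co-chaperone, rose in iBAT (0.90, limma adjusted p = 0.00296) and in liver (0.67, adjusted p = 0.0716), and in iWAT it was at 41.6 in WT and 46.4 in LFABP-/- mice. With the hepatocyte covariate its iBAT difference was 0.39 (adjusted p = 0.448, limma), and no gene of the list was called there.

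Around Slc38a7, the other SLC38 transporters had no call in iWAT. The plasma membrane carrier Slc38a2 rose in iBAT from 16.7 to 27.6 (log2 difference 0.70, adjusted p = 0.00185, limma; 0.41 and 0.301 with the hepatocyte covariate). In the glutamine and asparagine list, Slc3a2, the heavy chain of amino acid exchangers, rose in iWAT from 123.4 ± 6.40 to 178.6 ± 17.8 (SD, n = 5; limma, adjusted p = 0.0290) and in iBAT from 21.9 to 83.1 (adjusted p = 0.0011, or 0.242 with the hepatocyte covariate), with means of 27.1 and 26.4 in liver. In iBAT asparagine synthetase, Asns, rose by 0.93 and the asparaginase gene Aspg fell by 1.73 on the log2 scale, from 100.0 to 29.5. Glutamine synthetase, Glul, fell in iBAT by 0.67 and rose in liver by 0.48 (limma, adjusted p = 0.000395 and 0.0981; 0.108 in iBAT with the hepatocyte covariate). The 2 liver calls of this list, Glul and Got1, were both lost without WT replicate 2 or LFABP-/- replicate 4 or 5, and the iWAT call of Slc3a2 without WT replicate 3 or with median-ratio scaling.

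Among the ubiquitin ligase adaptors, 1 of 23 Kelch-like genes was called in iWAT, Klhl21, which fell from 40.8 to 27.5 (limma, adjusted p = 0.0621), and it also fell in iBAT, from 30.5 to 10.6. The iWAT call was lost without WT replicate 2, 3 or 5 or LFABP-/- replicate 1, 2, 4 or 5, and with median-ratio scaling. Klhl24 fell in iBAT by 0.56 and in liver by 0.60, with no overlap between genotypes in either tissue. In iBAT 5 of 21 were higher, first by p Klhl25 (1.11, limma adjusted p = 0.000473), and 6 lower, beside 22.3% and 25.5% of all genes; with the hepatocyte covariate 3 remained lower, Klhl24 among them, and none higher. In liver 4 of 22 were lower, beside 13.9% of all genes, Cul3 itself by 0.22, and none higher; 1 remained lower without WT replicate 2 or LFABP-/- replicate 4 or 5, 2 without WT replicate 1 or LFABP-/- replicate 1 or 2, and 1 was called each way with median-ratio scaling. The F-box list had no call in iWAT among 39 genes. In iBAT 14 of 38 were higher and 9 lower, beside 22.3% and 25.5% of all genes, and with the hepatocyte covariate 2 remained lower and none higher. In liver none of 36 was higher and 4 were lower, beside 3.08% and 13.9% of all genes, or 4 higher and 3 lower with median-ratio scaling. Fbxo31 fell by 1.87 in iBAT and by 0.75 in liver (limma, adjusted p = 0.000207 and 0.0438; 0.103 in liver with median-ratio scaling).

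In the list of nesprins, SUN proteins and nuclear lamina genes, 9 of 17 were called lower in iBAT and 3 higher, beside 25.5% and 22.3% of all genes. With median-ratio scaling the split was 8 lower and 7 higher, and with the hepatocyte covariate 1 gene, Sun2, remained lower and none higher. Sun2, an inner membrane partner of nesprins, fell from 73.4 ± 5.43 to 45.8 ± 3.67 in iBAT (SD, n = 5; limma, adjusted p = 0.000159) and from 66.9 ± 12.3 to 42.9 ± 7.38 in liver (adjusted p = 0.0246), with no overlap in either, while in iWAT its means were 168.0 and 175.2. Sun1 fell in iBAT by 0.71. Syne3, which encodes nesprin-3, was the 1 of 18 listed genes called in iWAT, where it fell from 25.3 ± 2.09 to 12.2 ± 3.16 (adjusted p = 0.0431), and it fell in iBAT by 0.72 (adjusted p = 0.00357, or 0.409 with the hepatocyte covariate). In liver the means of Syne3 were 3.30 and 2.22, and the difference did not pass (adjusted p = 0.118). Leaving out WT replicate 2, 3 or 5 in turn ended the iWAT call of the list.

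The LDL receptor family of Lrp3 had its highest share of calls in liver, where 9 of 12 genes tested were lower and none higher, beside 13.9% of all genes lower; the median of the list was -0.46 and that of all genes -0.10. They included the endocytic receptor Lrp1 (147.7 ± 22.6 in WT and 100.2 ± 14.4 in LFABP-/-, SD, n = 5), the WNT co-receptor Lrp6 (16.7 and 12.3), Ldlrad3 (2.76 and 1.78) and Ldlrad4 (2.30 and 1.26). With median-ratio scaling 4 of the 12 were called lower, Lrp1 no longer among them (limma, adjusted p = 0.117), without WT replicate 2 also 4, and none was called higher in either. In iBAT 5 of 13 were lower, Lrp1 by 1.04 (limma, adjusted p = 0.00059), and 2 were higher; with the hepatocyte covariate Lrp1 alone remained. In iWAT Lrp12 was the 1 of 14 called, and it fell from 14 to 8.28 (limma, adjusted p = 0.0520; lost without WT replicate 2, 3 or 5 or LFABP-/- replicate 2 or 4).

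The relatives of Acsm5 gave 1 call in iWAT, the propionyl-CoA synthetase gene Acss3, which fell from 73.3 ± 16.6 to 38.7 ± 7.78 (SD, n = 5; limma, adjusted p = 0.068; lost without WT replicate 2, 3 or 5 or LFABP-/- replicate 1, 3 or 4, and with median-ratio scaling). Acss3 also fell in iBAT, from 29.2 to 13.1 (log2 difference -1.14, adjusted p = 0.000143), and had means of 7.22 and 9.88 in liver. In iBAT all 7 genes tested were called, 4 higher and 3 lower (2 higher without LFABP-/- replicate 1 or 2; none higher and 2 lower with the hepatocyte covariate), and in liver none of 7 (1 with median-ratio scaling). Acsm1, whose main site is liver and kidney, was at 0.06 in WT and 2.06 in LFABP-/- iBAT, where the hepatocyte markers were also higher. It passed the filter of a mean of at least 1 only through the LFABP-/- group, so nothing is read from its call as 1 of the 4 higher. With the hepatocyte markers as a covariate its log2 difference was 0.06 in place of 1.93. With the same covariate 9 of the 35 genes named by p in the iBAT lists were still called, and 35 of 35 kept their direction. Among those 9 were Sun2 (-0.68), Acss3 (-1.20), Aspg (-1.55), Asns (0.69) and Lrp1 (-1.01).

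**Figure D4:**
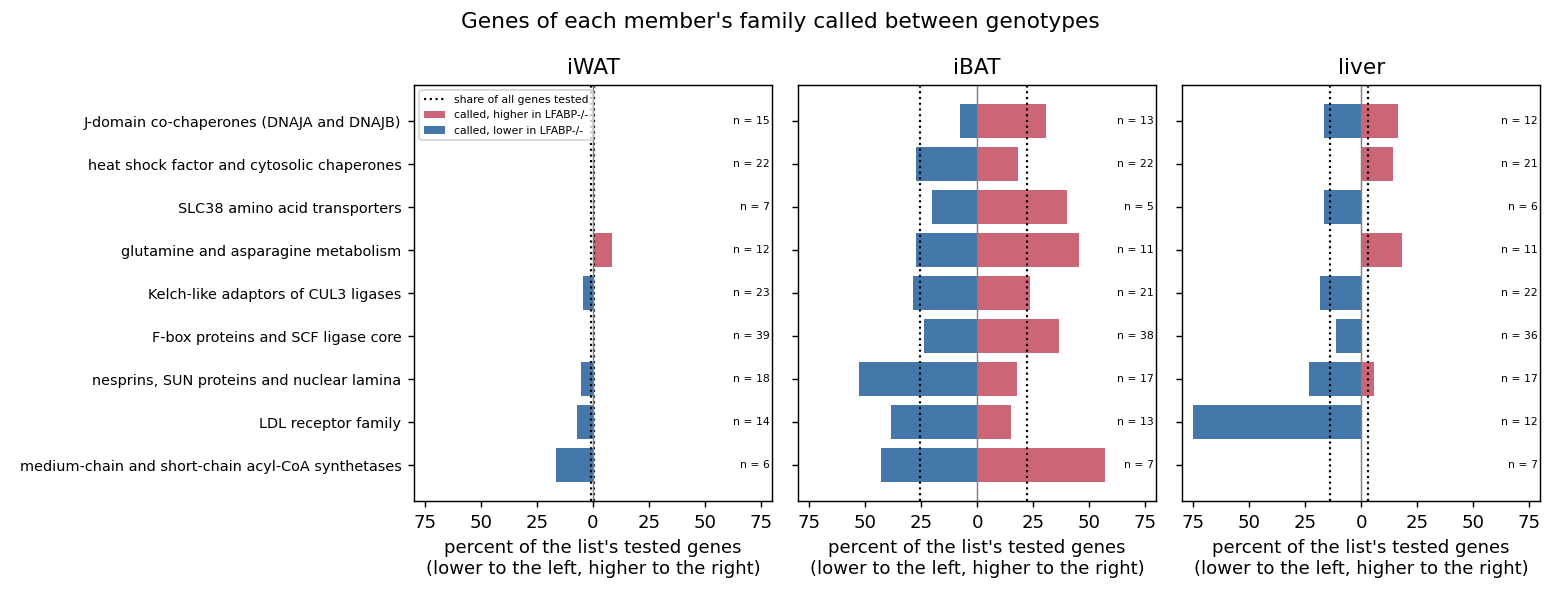
Share of the tested genes of each list called by limma (adjusted p under 0.1) as higher (red, to the right) or lower (blue, to the left) in LFABP-/- mice, by tissue, with the number tested; dotted lines mark the share of all genes. The LDL receptor family in liver, with 9 of 12 lower, reaches farthest from its dotted line, and iWAT has at most 1 call in any list.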

How the data were processed

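RNA-seq libraries of iWAT, iBAT and liver were made from 5 WT and 5 LFABP-/- male mice with a kit that does not mark strand after poly(A) selection, and the groups were taken from the sample titles. Per the labels and the study's methods (which describe iWAT), the authors trimmed and aligned the 100-base reads with CLC Genomics Workbench 20.0.4 to mouse GRCm38 with Ensembl release 92 genes. The deposited values, RPKM per the file headers and rounded to 1 decimal, were handled as TPM because each library sums to between 999967 and 999996. TPM keeps no depth.

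Genotypes were compared within each tissue (5 against 5) with limma 3.58.1 in R on log2(value + 0.5), for genes with a mean of at least 1, with an intensity trend and Benjamini-Hochberg adjustment over all genes tested, with calls made at an adjusted p under 0.1. Tissues were compared within a genotype in the same way with the mouse as a random block. Mouse deviations were tested by exact permutation within genotype. Scripts were tested on simulated data. Promoters came from RefSeq, and gene models and shared 100-base stretches from GENCODE M21, whose members' coordinates equal those deposited.

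The 7 genes and the family and marker lists were chosen with earlier results of these data known. The text names the 7 genes, Fabp1, up to 4 genes by smallest p per list and tissue, the 2 genes most like each member, overlapping genes and listed markers; further genes were named after their values were seen, and some listed genes are not reported here. Other pseudocounts, scalings, filters, covariates, a replicate block and the omission of each library were tried.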

Additional observations from a re-analysis of the deposited data

Results flagged for a closer look

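Of 48 groups of 5 libraries tested (the 7 genes and Fabp1 in 6 groups each), 6 had a library far from the other 4 by Dixon's test, where chance alone gives about 1 in 20. For the 7 genes these were Klhl9 in liver of WT replicate 1, at 27.7 against 23.6 to 24.7 in the other 4, Fbxo21 in iWAT of LFABP-/- replicate 2, at 112.5 against 72.3 to 79, and Lrp3 in iBAT of WT replicate 2, at 16.1 against 11.8 to 13. Without the respective library the log2 difference between genotypes was in the same direction for all 3. For Fabp1 they were iWAT of the library labelled LFABP-/- replicate 1, at 196.1 against 0.2 to 0.9, liver of WT replicate 3, at 9166 against 11860 or more, and liver of LFABP-/- replicate 1, at 51.8 against 0.2 to 13.7.

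Among the family genes called in opposite directions in iBAT and liver, the genotypes did not overlap in either tissue for the F-box gene Fbxo38, with a log2 difference of 0.39 in iBAT and -0.34 in liver, and the transporter Slc38a10, with 0.63 and -0.41. In each tissue every LFABP-/- library was on the same side of all WT libraries, higher in iBAT and lower in liver, and the difference between the tissues itself was not tested.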

How the results depend on the processing

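All 21 genotype differences of the 7 genes kept their direction in every alternative run that tested them, and 9 of the values moved by more than 1 SD. With a mean of at least 20 some of the 21 were not tested. The direction chose the genes and the runs share libraries, so nothing is read from its being kept. Counts of all genes called varied more. In iWAT (213) they were 101 with median-ratio scaling, 135 without a filter and 135 with a mean of at least 20, 51 to 318 without 1 library, 1352 with the lymphocyte covariate and 54 with the skeletal muscle covariate. The lowest counts were without WT replicates 5, 3 and 2 (51, 57 and 60) and LFABP-/- replicate 4 (70), and 99, 113, 120 and 123 remained without LFABP-/- replicates 1, 2, 3 and 5. In iBAT (5556) they were 1391 with a mean of at least 20 and, chosen after seeing the data, 793 with the hepatocyte covariate, whose values did not overlap between the genotypes. In liver (1969) they were 1208 without mitochondrial genes, 564 with a mean of at least 20 and 746 to 2150 without 1 library (746 without WT replicate 2, 1054 and 1098 without LFABP-/- replicates 5 and 4). Median-ratio scaling turned the liver split from 358 higher and 1611 lower to 1158 and 834. Added after seeing the data, prefix G30 alone gave 0 calls in iWAT and 34 in liver, prefix G32 alone 0, 2884 in iBAT and 22 in liver, and the 5 low-lymphocyte iWAT libraries 6; in limma 1042 and 931 genes of the G30 and G32 iWAT fits had an unadjusted p under 0.05. The prefix was taken from each mouse's iBAT and liver libraries, since no WT iWAT library is itself named G32. With fewer libraries or genes the tests differ in power. Other causes were not tested.

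Replicate numbers of WT and LFABP-/- mice mark different animals. Same-numbered libraries correlated at -0.33 to 0.67 in iWAT, -0.53 to 0.51 in iBAT and -0.06 to 0.13 in liver (deviations from group means over genes), and 4, 2 and 2 of 10 libraries correlated best with their own number. A replicate block gave 248, 5661 and 1258 calls in the tissues. It cannot move the 21 differences, because each number holds a WT and an LFABP-/- library. Without the mouse block, tissue differences were called for 19 and 20 of 21.

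Called tissue differences numbered 19 in WT (12 with median ratios, 11 with a mean of at least 20) and 20 in LFABP-/- mice (5 with a mean of at least 20, where fewer genes are tested). With median ratios directions turned for iBAT minus iWAT in WT (Fbxo21 0.30, Dnajb4 0.34, Klhl9 0.29) and LFABP-/- mice (0.64, 0.26, 0.60), for liver minus iWAT in WT (Dnajb4 0.061, Slc38a7 0.99, Klhl9 0.24) and LFABP-/- mice (Lrp3 0.32, Slc38a7 1.08, Klhl9 0.51), and for Klhl9 liver minus iBAT in WT (-0.049). Without mitochondrial genes they turned for liver minus iBAT in WT (Lrp3 -0.54, Klhl9 -0.95) and LFABP-/- mice (Lrp3 -0.13) and for iBAT minus iWAT in LFABP-/- mice (Fbxo21 0.037, Klhl9 0.011). With 1 mouse left out, the value of Klhl9, log2 liver minus iBAT, LFABP-/-, ran from -0.0777 (without replicate 3) to 0.035 (without replicate 2). With median ratios 1 mouse relation passed, Acsm5 between iWAT and liver (r = -0.812, rho = -0.745, exact permutation p = 0.00125, adjusted 0.0262; r = -0.486 without 2 mice).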

Other observations

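Apart from the genes described, 7 genes were called by limma in the same direction in all 3 tissues, 4 higher and 3 lower in LFABP-/- mice; those named here were named after their values were seen. Wdfy1, which encodes an endosomal WD-repeat and FYVE-domain protein, rose from 9.08 ± 1.81 to 23.9 ± 2.98 in iWAT, from 2.92 ± 0.29 to 9.88 ± 1.14 in iBAT and from 4.52 ± 0.62 to 12.0 ± 0.54 in liver (SD, n = 5), with no overlap in any tissue. Its log2 differences of 1.36, 1.60 and 1.32 were larger than those of Dnajb4 in the same tissues (0.74, 0.53 and 0.37). Nnt, the mitochondrial transhydrogenase gene in which C57BL/6J mice are known to carry a deletion, was listed (as Nnt_1, with an overlapping second entry at 0 throughout) at 6.46 ± 0.90 in WT and 14.6 ± 2.85 in LFABP-/- iWAT, at 1.18 ± 0.55 and 2.86 ± 1.68 in iBAT and at 18.8 ± 4.78 and 40.8 ± 3.51 in liver. The groups did not overlap in iWAT or liver and did in iBAT. Esrra, an orphan nuclear receptor of oxidative metabolism, rose by 1.61 in iWAT, 0.18 in iBAT and 0.63 in liver, with no overlap in iWAT or liver. Among the lower genes, the galectin gene Lgals4 fell from 31.7 ± 5.31 to 14.1 ± 2.59 in iWAT, from 18 ± 3.28 to 3.94 ± 0.49 in iBAT and from 23.4 ± 6.23 to 8.60 ± 2.64 in liver. Gm21860, which the table lists with no chromosome name, differed by -2.51, -1.67 and -1.88, and the WNT receptor gene Fzd1 by -0.73, -0.71 and -0.38. The causes of these differences were not tested.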
